A study of Mus musculus with 4 samples.

Results

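Matricellular proteins are secreted into the extracellular matrix, where they act on cell adhesion and signalling more than as structural fibres. Of 9 such genes listed by name, 8 had at least 1 probe set annotated to that gene alone, giving 16 of the 45037 probe sets on the array besides controls and 8 of 18193 named genes. The members were periostin (Postn), thrombospondins 1 and 2 (Thbs1, Thbs2), tenascin-C (Tnc), SPARC or osteonectin (Sparc), matrix Gla protein (Mgp), fibronectin (Fn1) and cellular communication network factor 3 (Ccn3, formerly Nov). No probe set was listed to osteopontin (Spp1) in the annotation used, and that gene was not analysed here. A further probe set listed to both Thbs1 and Pald1 was not used for either gene.

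The cells were mouse embryonic fibroblasts (MEFs) in a reprogramming experiment, in which introduced transcription factors turn differentiated cells toward a pluripotent state. They were fixed, made permeable, stained and sorted by Oct4 (gene Pou5f1), Klf4 and the epithelial adhesion protein EpCAM. The 4 fractions had 1 array each. In the order of the gates, they were cells negative for Oct4 (Oct4-negative below), cells positive for Oct4 and negative for Klf4 (Oct4+Klf4-negative), cells positive for both and negative for EpCAM (Oct4+Klf4+EpCAM-negative), and cells positive for all of them (Oct4+Klf4+EpCAM+). The labels state no strain, time of sorting, set of introduced factors, or culture of origin of the Oct4-negative cells, and no Klf4 or EpCAM gate for fractions whose names lack them. With 1 array per fraction no difference has a replicate check, no test was possible, and precision is limited by the number of arrays.

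As background, fibroblasts make most of these proteins. Fibronectin is assembled by integrins into fibrils, on which periostin, tenascin-C and the thrombospondins dock. Thrombospondins also bind growth factors and cell surface receptors, SPARC binds calcium and collagen, and Ccn3 belongs to the CCN family of secreted signalling regulators. Mgp carries carboxylated glutamate (Gla) residues, made by a vitamin K-dependent enzyme, and keeps soft tissue from calcifying in mice. Loss of mesenchymal genes and gain of epithelial ones is a known early feature of fibroblast reprogramming.

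Values below are log2 levels after robust multi-array averaging (RMA), and each gene was read from its brightest probe set, judged by the mean of the 4 levels. Levels of different genes cannot be set against each other on an array, so only differences are compared between genes. The median of all values, 4.53, served as a floor for a measured gene, and all 8 members reached it on at least 1 array, as did 11428 genes in all. The background ceiling was set at 2.94, the top reading among 27 control probe sets for bacterial transcripts with low levels on every array. A gene was called higher or lower where the level differed by at least 2-fold, a log2 difference of 1, and the higher level reached the floor. Probe sets of 1 gene scattered in their log2 difference with a median SD of 0.167 at the Oct4 gate, 0.172 at the Klf4 gate, 0.122 at the EpCAM gate and 0.177 between the ends, over 5708 genes. Variation between cultures or sorts is not part of that scatter.

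Reading the genes of the sorted proteins served as a check of the labels. In gate order, Pou5f1 had levels of 7.59, 11.48, 11.66 and 11.70, Klf4 7.32, 6.24, 10.20 and 10.60, and Epcam 4.63, 5.20, 6.54 and 9.52. Each gene was higher where its protein was gated for, except that the dimmer Klf4 probe set ran the other way, with 6.95, 5.69, 2.67 and 3.20. Of 8 fibroblast markers on the array, 7 reached the floor, and Pdgfra did not. Array medians lay between 4.49 and 4.55. The Gapdh control probe sets differed between the 3′ and 5′ ends by 1.04, 1.30, 1.04 and 0.97 on the log2 scale through the gates, so that the Oct4+Klf4-negative array was the highest, whereas those of Actb differed by between -0.07 and -0.05.

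All 8 members were lower in the Oct4+Klf4+EpCAM+ fraction than in the Oct4-negative one, and they reached that end by different routes. Mgp and Ccn3 were lower mostly at the Oct4 step, Thbs2 mostly at the Klf4 step and Sparc only from the Klf4 step on. Postn and Thbs1 were first higher and then lower. Tnc and Fn1 were lower at every step, though neither was called at the EpCAM gate and Fn1 was not called at the Oct4 gate. In both Klf4-positive fractions each of the 8 members lay below its level in both other fractions, a pattern shown by 28.4% of the 11428 genes. For Ccn3 the levels past the Oct4 gate were all below the floor, and both Klf4-positive ones below the background ceiling. Its other probe set was below the ceiling in each of those fractions. Of the 8 members, 4 were lower at each of the 3 steps (Tnc, Sparc, Mgp and Fn1), against 10.9% of those genes, although for Sparc the first of the steps was within the scatter.

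**Figure D1:**
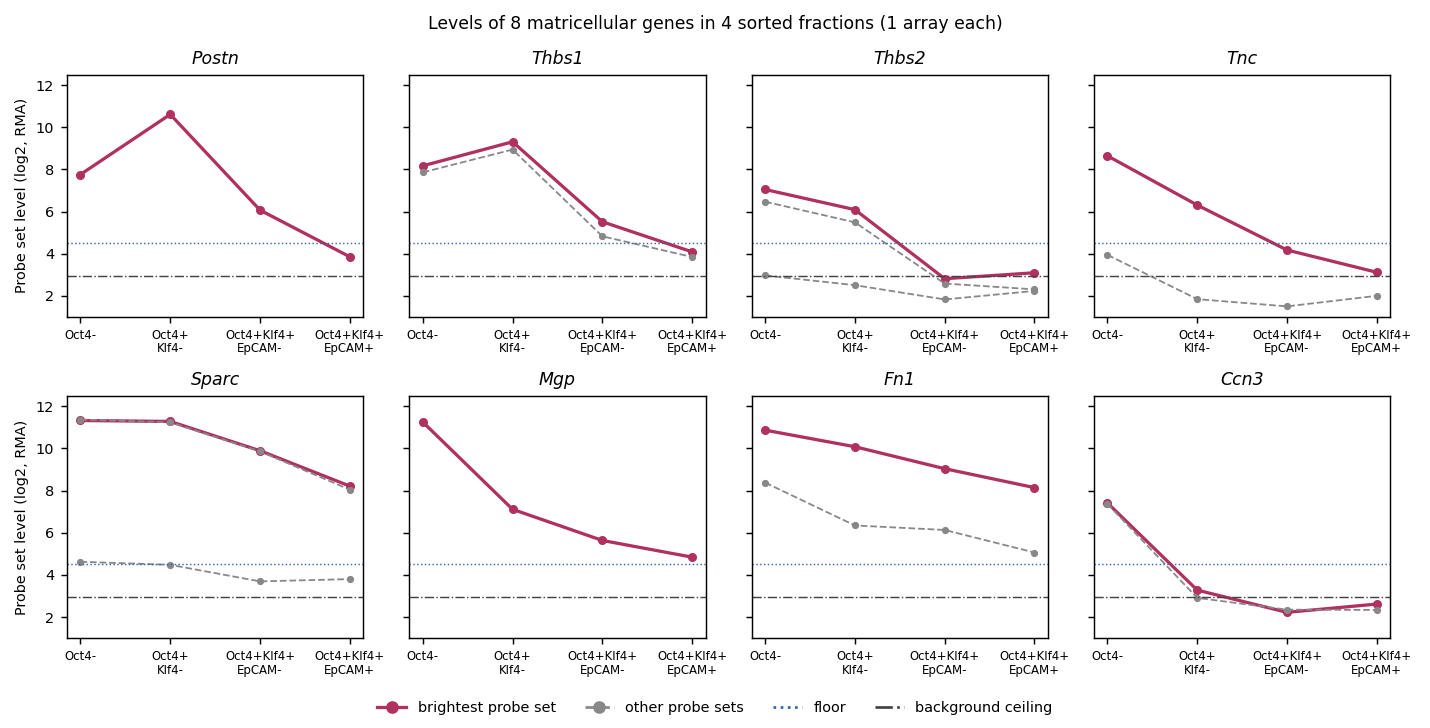
Log2 RMA level (vertical axis) of every probe set of the 8 members in the 4 fractions (horizontal axis, 1 array each). Red solid lines are the brightest probe set and grey dashed lines the others, the dotted line is the floor of 4.53 and the dash-dot line the background ceiling of 2.94; Postn and Thbs1 peak in the Oct4+Klf4-negative fraction, and the other 6 members are highest in the Oct4-negative one.

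The first question was how cells with Oct4 but without Klf4 differed from Oct4-negative cells. Of the 8 members, 3 were called lower and 2 higher in the Oct4+Klf4-negative fraction, where 4.84% of all genes were lower and 3.59% higher. Mgp and Ccn3 had the most negative differences among the members, while Postn was much higher. The median log2 difference of the members was -0.87, against 0.02 over all 11428 genes.

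Mgp, the calcification inhibitor, had levels of 11.25, 7.11, 5.63 and 4.84 through the gates. It was 17.6-fold lower in the Oct4+Klf4-negative fraction than in the Oct4-negative one, and the third lowest of the 11428 genes by log2 difference (-4.14). The later steps took it down further, 2.78-fold at the Klf4 gate and, short of the size rule, 1.73-fold at the EpCAM gate. Between the ends Mgp was 84.9-fold lower in Oct4+Klf4+EpCAM+ cells than in Oct4-negative cells. Its log2 difference of -6.41 was the most negative of all 11428 genes, with Cav1, which encodes the caveola protein caveolin, next at -6.39, a gap smaller than the scatter. Mgp was read by 1 probe set and still lay above the floor on the last array.

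Ccn3, which encodes a secreted CCN protein, had levels of 7.41, 3.28, 2.22 and 2.62. It was 17.5-fold lower in the Oct4+Klf4-negative fraction than in the Oct4-negative one, the fourth lowest log2 difference (-4.13) at that step. Beyond that gate it was below the floor, and in both Klf4-positive fractions it lay below the background ceiling, so the order of those 2 fractions was not read. Between the ends Ccn3 was at least 22.1-fold lower. Its other probe set gave a log2 difference of -4.46 at the Oct4 step.

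Tnc, a large matrix glycoprotein of developing and wounded tissue, had levels of 8.64, 6.31, 4.18 and 3.12. It was 5.05-fold lower at the Oct4 gate and 4.38-fold lower at the Klf4 gate. At the EpCAM gate the log2 difference was -1.06, but both levels were below the floor and the gene was not called. Between the ends Tnc was 45.9-fold lower in Oct4+Klf4+EpCAM+ cells. A dimmer probe set, never at the floor, had levels of 3.95, 1.85, 1.51 and 2.01. By the mean of both, Tnc had log2 differences of -1.24 at the Klf4 gate, where it was no longer called, and of -3.73 between the ends.

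Postn, which binds collagen and fibronectin and signals through integrins, had levels of 7.76, 10.61, 6.07 and 3.86. It was 7.22-fold higher in the Oct4+Klf4-negative fraction than in the Oct4-negative one, and only 60 of the 11428 genes had a larger positive difference. Thbs1, whose product binds CD47 and activates latent TGF-beta, had levels of 8.17, 9.31, 5.52 and 4.09. It was 2.20-fold higher at the same step, and its other probe set had a log2 difference of 1.08. The Oct4+Klf4-negative array therefore held the highest level of both genes. That array also had the widest difference between the ends of Gapdh, whose part in these results was not tested.

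Thbs2, the related thrombospondin, did not share the peak of Thbs1. Its levels were 7.05, 6.09, 2.82 and 3.10, and the log2 difference at the Oct4 step was -0.96, short of the size rule. Fn1 had levels of 10.86, 10.08, 9.04 and 8.14, with a log2 difference of -0.79 at that step. Its other probe set had levels of 8.37, 6.34, 6.13 and 5.06, a log2 difference of -2.03 at the Oct4 step and of -0.21 at the Klf4 step. The 2 probe sets of Fn1 thus placed its largest step at different gates, although both were lower at every one. Sparc had levels of 11.32, 11.28, 9.89 and 8.21, and its log2 difference of -0.04 at the Oct4 step was within the scatter between probe sets. A probe set nearly as bright gave -0.13.

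The Klf4 gate asked what distinguished Oct4+Klf4+EpCAM-negative cells from Oct4+Klf4-negative cells. Here 7 of the 8 members were called lower and 0 higher, where 6.88% of all genes were lower and 8.44% higher. The members' median log2 difference was -1.80, against 0.04 over all genes. The Oct4 and Klf4 steps share the Oct4+Klf4-negative array, so a high reading on it raises the difference at the Oct4 step and lowers the one at the Klf4 step.

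Postn was 23.3-fold lower in the Oct4+Klf4+EpCAM-negative fraction than in the Oct4+Klf4-negative one, the tenth lowest log2 difference (-4.54) at this step. That shared array does not enter a comparison with the Oct4-negative fraction, and the level of 6.07 in Oct4+Klf4+EpCAM-negative cells was also lower than the 7.76 in Oct4-negative cells. Thbs1 was 13.9-fold lower at the Klf4 gate, and its other probe set gave -4.11. Thbs2 was at least 8.89-fold lower, since its level of 2.82 lay below the background ceiling, and its next probe set gave -2.90. By the mean of its 3 probe sets, of which 1 never reached the floor, Thbs2 had log2 differences of -2.28 at the Klf4 gate and -2.95 between the ends. Thbs1 and Thbs2 thus differed at the Oct4 step and were both much lower at the Klf4 one.

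Tnc and Mgp were lower at the Klf4 gate by the folds given above, and the remaining members by smaller amounts than Postn, Thbs1 and Thbs2. Sparc was 2.62-fold lower. Fn1 was 2.06-fold lower, just past the size rule. By the mean of its 2 probe sets Fn1 had a log2 difference of -0.63 at this step and -1.41 at the Oct4 step, which would move its call from the Klf4 gate to the Oct4 gate. Ccn3 had a log2 difference of -1.05 with both levels below the floor, and it was the 1 member not called.

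The EpCAM gate separated Oct4+Klf4+EpCAM+ from Oct4+Klf4+EpCAM-negative cells, and 3 of the 8 members were called lower there and 0 higher. Over all genes 1.79% were lower and 3.11% higher. The members' median log2 difference was -0.98, and that over all genes was -0.0008. Postn was 4.64-fold lower, Sparc 3.20-fold and Thbs1 2.69-fold, the other probe set of Thbs1 giving -0.98 on the log2 scale, just short of the size rule. For Sparc this was the largest step, and a nearly equal probe set gave -1.82, while another and much dimmer one, below the floor in 3 fractions, gave 0.11. Mgp and Fn1 had log2 differences of -0.79 and -0.90. Thbs2 and Ccn3 were at or near the background ceiling on both arrays.

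Between the ends of the series all 8 members were called lower, where 10.8% of all genes were lower and 11.9% higher. The members' log2 differences ran from -6.41 for Mgp to -2.72 for Fn1, with a median of -4.01 against 0.07 over all genes. Postn was 14.9-fold lower in Oct4+Klf4+EpCAM+ cells than in Oct4-negative cells, Thbs1 16.9-fold, Thbs2 15.4-fold, Sparc 8.64-fold and Fn1 6.61-fold. The last levels of Thbs2 (3.10) and Tnc (3.12) lay just above the background ceiling of 2.94. The next probe set of Thbs2 read 2.31 there, below that ceiling. By the mean of its 3 probe sets Sparc had a log2 difference of -2.42 between the ends. Sparc and Fn1, with the smallest differences, were also still well above the floor on the last array, whereas Postn, Thbs1, Thbs2, Tnc and Ccn3 were below it. This comparison and the Oct4 step share the Oct4-negative array.

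**Figure D2:**
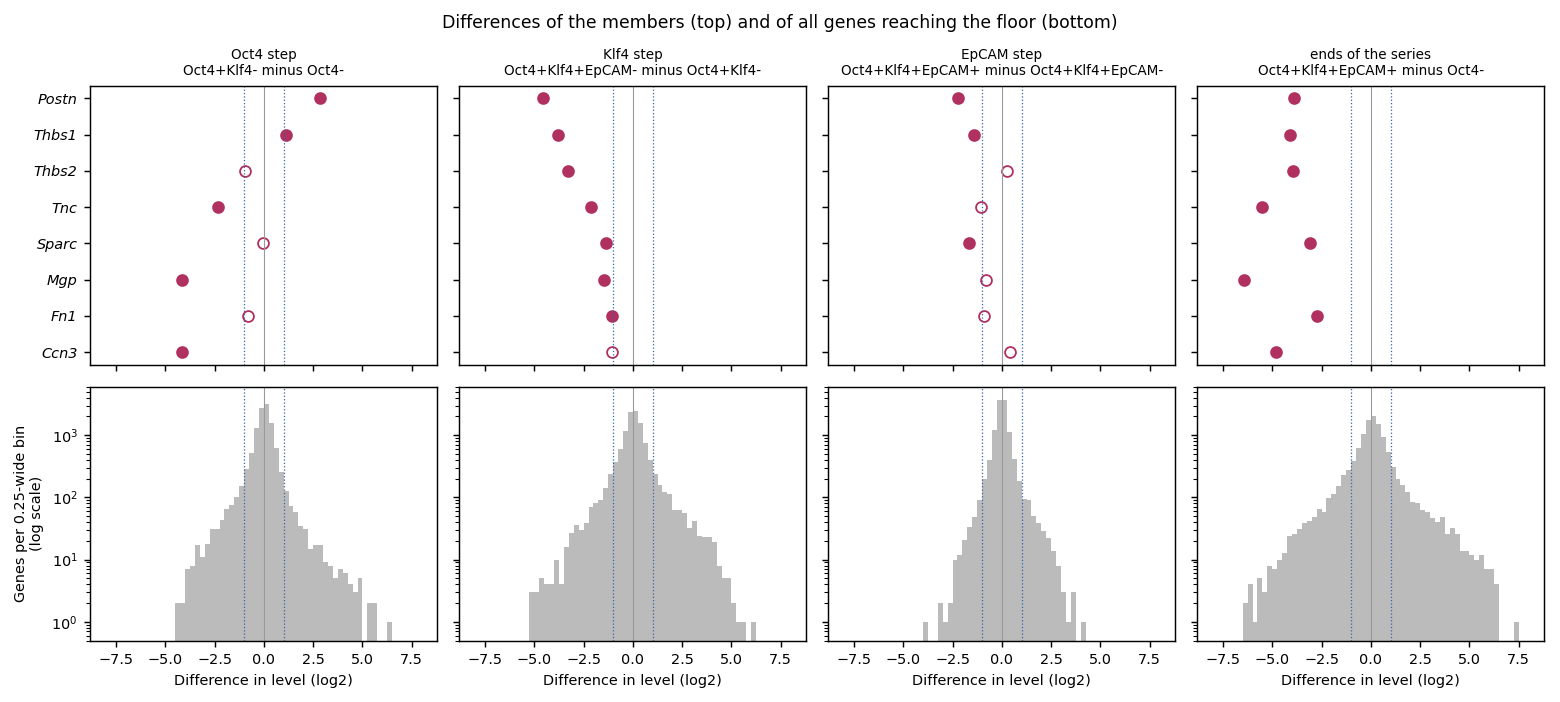
Log2 difference, later gate minus earlier gate, of each member (top row; filled points are called, open points are not) and of the 11428 genes that reached the floor (bottom row, genes per bin on a log scale). Dotted lines mark a log2 difference of 1 either way; at the Klf4 step and between the ends no member lies to the right of 0.

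The 8 members were ordered by level, and neighbours in that order were compared with the scatter between probe sets. The 1 pair within 2 SD of it was that of Oct4-negative and Oct4+Klf4-negative cells for Sparc, 0.04 apart. The lowest places of Thbs2 and Ccn3 were not ordered, because the levels were near or below the background ceiling. In the other cases the gap was larger than 2 SD of that scatter, a median over all genes and not a replicate check. The SD between a member's own probe sets was also taken, over those that reached the floor on at least 1 array. By that SD, the gaps of Fn1 at the Oct4 gate (0.79, SD 0.88) and the Klf4 gate (1.04, SD 0.59) were within 2 SD. So was the gap of Sparc at the EpCAM gate (1.68, SD 1.07). Postn, Tnc and Mgp had 1 such probe set and no SD. For Tnc the dimmer probe set gave log2 differences of -0.34 at the Klf4 gate and 0.50 at the EpCAM gate, against -2.13 and -1.06.

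Promoter sequences are shown to set members with different routes side by side, for the 4 measured members found in RefSeq on build GRCm38.p6 (Thbs1, Mgp, Fn1 and Ccn3 had no entry in the table used). Each run holds the 250 bases before a transcript start on the gene's strand, 5′ to 3′, and for Postn and Tnc, with 2 starts each, the downstream one was taken. Capitals mark the letters TATAAA or their reverse complement, the only one of 3 motifs searched on both strands that occurred in these windows. Postn, highest without Klf4, lies on the plus strand at chr3:54360857-54361106. Tnc, called lower at the Oct4 and Klf4 gates, lies on the minus strand at chr4:64046937-64047186. Thbs2, lower mainly at the Klf4 gate, lies on the minus strand at chr17:14694263-14694512. Sparc, level across the Oct4 gate, lies on the minus strand at chr11:55420081-55420330.
Postn: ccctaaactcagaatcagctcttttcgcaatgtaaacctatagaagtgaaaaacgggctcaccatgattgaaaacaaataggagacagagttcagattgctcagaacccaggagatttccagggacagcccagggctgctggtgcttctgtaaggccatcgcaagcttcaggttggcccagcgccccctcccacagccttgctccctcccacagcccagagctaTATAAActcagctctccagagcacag
Tnc: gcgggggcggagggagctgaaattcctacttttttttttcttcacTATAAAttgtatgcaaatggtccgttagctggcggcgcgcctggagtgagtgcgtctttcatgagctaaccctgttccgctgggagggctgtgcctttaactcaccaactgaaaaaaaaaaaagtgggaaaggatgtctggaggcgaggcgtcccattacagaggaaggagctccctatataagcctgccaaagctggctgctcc
Thbs2: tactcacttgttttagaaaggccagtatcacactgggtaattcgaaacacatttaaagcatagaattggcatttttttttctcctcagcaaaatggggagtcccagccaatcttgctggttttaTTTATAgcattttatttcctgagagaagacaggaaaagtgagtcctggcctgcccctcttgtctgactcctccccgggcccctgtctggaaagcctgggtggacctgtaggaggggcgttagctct
Sparc: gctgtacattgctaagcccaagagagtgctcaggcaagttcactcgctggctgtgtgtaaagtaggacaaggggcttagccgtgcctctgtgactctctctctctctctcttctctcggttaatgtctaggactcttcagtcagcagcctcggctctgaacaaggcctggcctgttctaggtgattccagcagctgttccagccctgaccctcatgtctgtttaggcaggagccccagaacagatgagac

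Counted from the transcript start, the first base of the match lay at -26 in Postn, -205 in Tnc and -126 in Thbs2. These results depend on the start taken. Before the upstream start, which is not shown, Postn held no match, and the same match of Tnc lay at -126. Sparc held no match. The same letters were found in 12.4% of 32817 RefSeq windows of this length. Neither TGANTCA, the AP-1 site, present in 6.75% of windows, nor GGAATG, the TEAD site, present in 12.6%, occurred in the 4 windows shown. A match is only a match of letters.

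Related genes were read from lists of the families, receptors and partners of the members. Of 66 listed genes, 60 were on the array under 1 symbol and 36 reached the floor. Of these 36, 11 were called lower and 2 higher at the Oct4 step, 13 lower and 5 higher at the Klf4 step, 10 lower and 1 higher at the EpCAM step, and 20 lower and 4 higher between the ends. The background shares are those given above for each step. Their median log2 difference between the ends was -1.45, smaller in size than that of the members.

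Of the 4 other CCN genes measured, 4 were lower between the ends, where 10.8% of all genes were lower. Their median log2 difference was -5.09. Ccn1 and Ccn2, targets of the YAP pathway, had log2 differences of -3.17 and -3.09 at the Klf4 gate, with levels of 10.66, 9.95, 6.79 and 5.41 for Ccn1 and of 8.33, 7.45, 4.37 and 3.20 for Ccn2. Neither was called at the Oct4 gate, unlike Ccn3. Ccn5, with levels of 5.96, 3.91, 3.62 and 3.80, was lower mainly at the Oct4 gate, like Ccn3, and Ccn4 had levels of 7.87, 6.13, 3.24 and 2.82. Thbs3 had levels of 7.79, 7.14, 4.52 and 4.43, and its log2 difference of -2.62 at the Klf4 gate ran with that of Thbs2. Thbs4 and Comp, the other thrombospondin genes, and the tenascin genes Tnn, Tnr and Tnxb stayed under the floor on every array. Tgfbi, the paralogue of Postn, was highest in Oct4-negative cells, went on with 7.59, 5.30 and 4.06, and had no peak in Oct4+Klf4-negative cells. Fstl1, a SPARC relative, stayed at 11.13, 11.23 and 10.88 before 9.50 in the last fraction, and Spock2 had a log2 difference of -1.18 at the EpCAM gate.

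Between the ends the listed receptors had a median log2 difference smaller in size than the members' -4.01, with single receptors called either way. Of 12 measured, 4 were lower and 1 higher between the ends, where 10.8% of all genes were lower and 11.9% higher. The median log2 difference of the receptors was -0.71, against 0.07 over all genes. The integrin chains Itgav, Itgb1, Itgb5 and Itga5 and the receptors Cd44 and Cd47 were not called between the ends, with log2 differences from -0.93 to -0.26. Itga8, an integrin chain that pairs with Itgb1, had levels of 6.68, 9.38, 5.06 and 3.82 and was highest in the same fraction as Postn. Itgb3, which pairs with Itgav to bind several matricellular proteins, went the other way, with 4.59, 3.46, 5.39 and 6.38. Sdc4, a syndecan that binds fibronectin, had levels of 9.76, 8.24, 6.86 and 8.32. It was called lower at the Oct4 and Klf4 gates and higher at the EpCAM gate. The 4 receptors lower between the ends were Itga8, Itga4, Sdc2 and Sdc4, with log2 differences of -2.86, -1.88, -1.46 and -1.44.

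Between the ends, the calcification and Gla genes did not follow Mgp. Of 6 measured genes, 2 were higher and 0 lower there, where 11.9% of all genes were higher and 10.8% lower. Their median log2 difference was 0.33. At the Oct4 step 1 was called lower, as Mgp was (Ank, log2 difference -1.50), and 1 higher (Alpl, 3.40). At the Klf4 step Alpl was called lower (-1.25) and 2 genes higher. The background shares of those steps are given above. Ggcx, the carboxylase that makes Gla residues, stayed between 6.33 and 6.53, and Vkorc1, which recycles vitamin K, lay between 8.46 and 9.08. Nt5e, which makes adenosine from AMP and whose loss causes arterial calcification in humans, had levels of 4.72, 4.92, 8.88 and 8.91. Alpl, the alkaline phosphatase that removes the mineralization inhibitor pyrophosphate, had 4.68, 8.08, 6.83 and 7.15. Ank, a pyrophosphate exporter, had 6.81, 5.32, 7.36 and 7.46. Nt5e was therefore higher only from the Klf4 gate on, and Alpl from the Oct4 gate on.

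Of 10 measured genes of matrix assembly, 9 were lower and 1 higher between the ends, where 10.8% of all genes were lower and 11.9% higher. Their median log2 difference was -3.83 beside the members' -4.01. Col1a1, a chain of type I collagen, had levels of 11.33, 8.06, 6.15 and 5.26, and Fbln2, a fibulin that binds fibronectin, 7.17, 3.83, 3.52 and 3.83, both lower mainly at the Oct4 step. Col3a1, a chain of type III collagen, had 11.14, 11.13, 8.51 and 6.41, level across the Oct4 gate like Sparc. Tgm2, a transglutaminase that binds fibronectin and crosslinks matrix proteins, was the exception, with levels of 7.30, 6.31, 10.45 and 11.17.

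**Figure D3:**
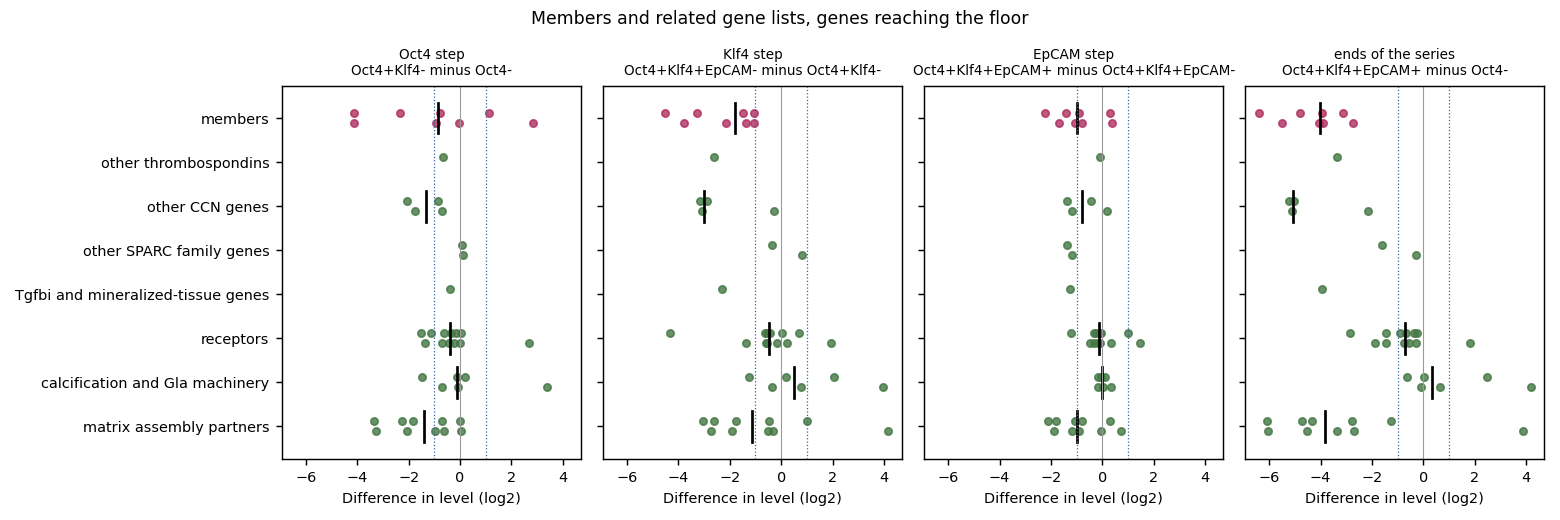
Log2 difference, later gate minus earlier gate, of the measured members (red) and of measured genes in the related lists (green, 1 point per gene), with the median as a black bar for lists of 3 or more genes. Dotted lines mark a log2 difference of 1 either way. Between the ends the other CCN genes and, except Tgm2, the matrix assembly partners lie to the left with the members. Most receptors lie there between 0 and the left dotted line.

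For each member the 3 genes most alike in pattern were found among the 11428 genes, by the root mean square (RMS) difference over the 4 arrays between levels centred on each gene's mean. For Postn the nearest gene was Itga8 (RMS difference 0.47), followed by Ptx3 and Zeb2. For Thbs1 it was the collagen gene Col8a1 (0.11), then Itm2a and Alcam. For Thbs2 they were Sertad4 (0.08), Osr1 and Notch3, and for Tnc the smooth muscle actin gene Acta2 (0.21), then Aebp1 and Ccn4. Mgp was nearest to the proteoglycan gene Bgn (0.29), Col1a1 and Fhl1, and Ccn3 to Inhba (0.13), the coagulation gene F3 and Gpnmb. Sparc was nearest to Clip3 (0.12), Tmem176b and Ikbip, and Fn1 to Fam214a (0.05), Ccdc80 and Prickle1. None of these 24 genes was itself a member. The likeness rests on 4 arrays that all genes share.

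**Figure D4:**
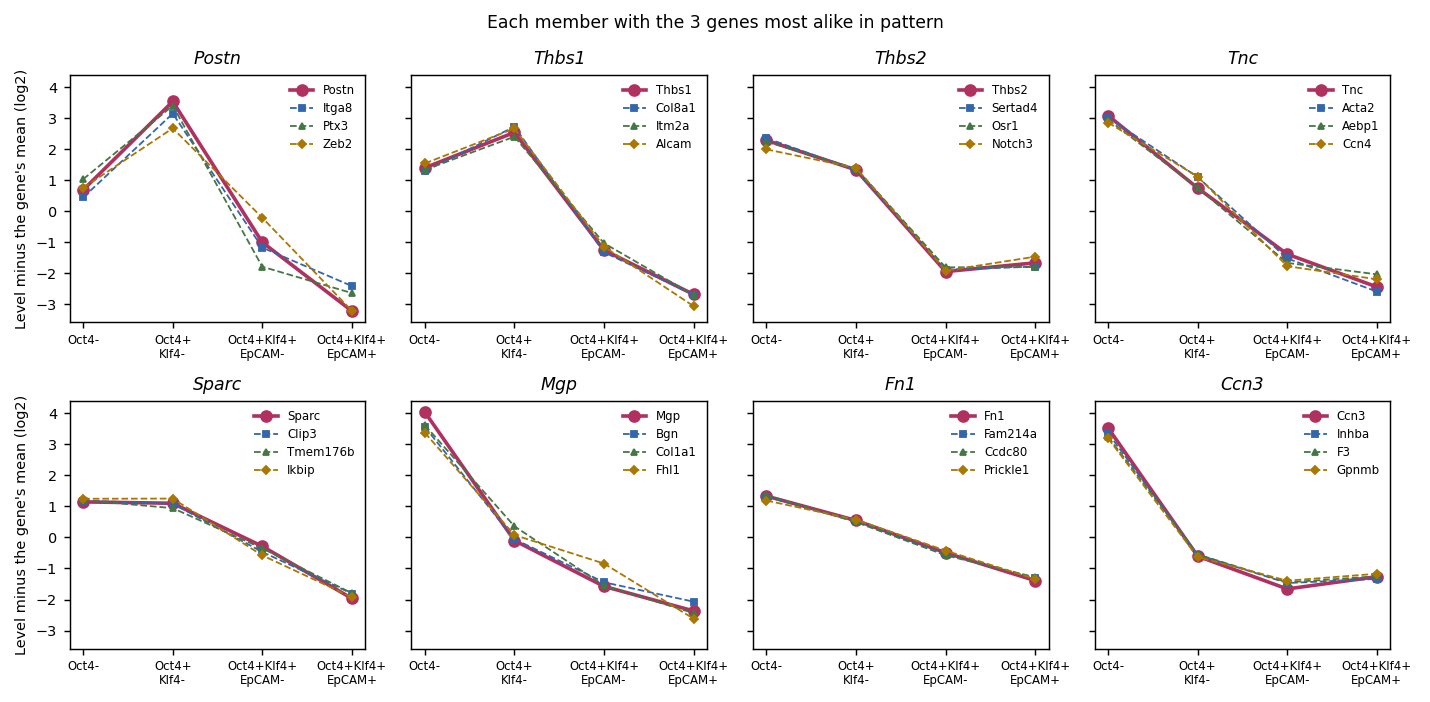
Level minus the gene's own mean over the 4 arrays (log2, vertical axis) in the 4 fractions (horizontal axis), for each member (red, thick) and the 3 genes most alike in pattern (dashed). Postn peaks in the Oct4+Klf4-negative fraction together with Itga8, and Mgp and Ccn3 are lower mainly at the first gate, as are the genes drawn with them.

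Marker lists of other cells were read on the same arrays, as summed log2 levels through the gates. The 8 fibroblast markers summed to 65.3, 61.5, 49.3 and 44.0 and the 5 smooth muscle markers to 31.7, 27.5, 23.8 and 21.9, moving down with the members. In the fibroblast list Dcn went the other way, from 6.76 to 10.98 between the ends. Thy1 was called higher at the Oct4 gate, and Pdgfra stayed below the floor. In the smooth muscle list the fall came from Acta2 and Tagln, while Des was called higher at the Klf4 gate and Myh11 and Cnn1 stayed below the floor. The 6 keratinocyte markers summed to 27.7, 28.2, 39.5 and 43.3, although Trp63 and Krt15 stayed below the floor and Krt5 between 4.62 and 4.93. The 5 trophoblast markers on the array summed to 16.6, 15.8, 24.1 and 27.7, with Cdx2 below the ceiling throughout. The 9 macrophage and leukocyte markers summed to 32.6, 29.0, 32.3 and 32.5, and 3 of them (Adgre1, Itgam and Tyrobp) were at or below the background ceiling on every array. Of the 3 that reached the floor, Cd68 (7.76, 5.95, 6.32 and 6.48) and Cd14 (4.63, 3.21, 4.85 and 4.69) were called lower at the Oct4 step. Cd14 was called higher at the Klf4 step, and Fcer1g was not called at either. Of the 6 endothelial markers 1 (Tek) reached the floor (sums 15.5, 19.4, 22.4 and 22.8), and likewise 1 of the 6 primitive endoderm markers (Dab2; sums 22.5, 20.8, 21.6 and 22.2). Platelet markers summed to 16.8, 14.5, 16.0 and 15.8, the 5 bone and cartilage markers on the array to 20.4, 17.9, 18.4 and 18.0, and the 2 Schwann cell markers on the array to 7.94, 8.19, 7.70 and 7.86. The part of these cells in the members' differences was not tested, and in sorted bulk RNA fewer cells that express a gene and less RNA per cell cannot be told apart.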

How the data were processed

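RNA of 4 sorted MEF fractions was read on 1 Affymetrix array each. Per the labels' protocols, RNA of fixed cells was isolated with RecoverAll and amplified with the Ovation Pico WTA kit, steps that can change a transcript's level according to its integrity. The deposited values are log2 probe set levels made by the authors with RMA, per the submitters' processing notes, with no version given in the sources used here. They ran from 1.31 to 14.4. Gene names came from the platform annotation: of 45037 probe sets besides 64 controls, 34945 had 1 symbol, 932 had several and were not used, and 9160 were unnamed. Differences, the size rule, likeness and motif counts were computed in Python 3.11.15 with numpy 2.4.6 and pandas 2.3.3, and simulated data were used to test the size rule. Where the dimmer level was at or below the ceiling, folds were taken against it and given as "at least". All members are named, related genes if past the size rule or as examples of their list, of which those not past it were chosen after their values were seen, and Cav1 likewise. The members, lists and motifs were chosen with earlier results of these data known. The alternatives were other ways to represent a gene, other floors, folds of 1.5 and 3, and 2 scalings between arrays.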

Additional observations from a re-analysis of the deposited data

How the results depend on the processing

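All 8 members stayed lower between the ends under each of the 8 alternatives run, except that the choice of probe sets by name could not be made for Ccn3, which has none of the kind kept and was counted with its own value. At the Oct4 step the count of members past the fold stayed between 4 and 7, against 5. At the Klf4 step it was 4 with a 3-fold rule (Postn, Thbs1, Thbs2 and Tnc), against 7, and 5 to 8 otherwise. At the EpCAM step it was 1 with the floor at the 75th percentile (Sparc) and 5 with a 1.5-fold rule, against 3. By the mean of all probe sets of a gene, 15 of 32 log2 differences of the members moved by more than the scatter between probe sets. None changed sign, and the cause was not tested. The differences of Postn and Mgp, with 1 probe set each, could not move. The 2 scalings, which shift all genes alike by at most 0.06, and the choice of probe sets by name, which kept the same probe sets, say little about stability. No paired analysis was possible because each fraction has 1 array. No replicate could be left out, and no background correction could be redone from these values. Levels at or below the ceiling, such as those of Ccn3 in both Klf4-positive fractions, give only bounds.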

Other observations

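Among the members, the pair most alike in pattern over the 4 arrays was Sparc and Fn1, with an RMS difference of 0.42 between centred log2 levels, and the pair least alike was Postn and Ccn3, at 2.71. Tnc and Mgp differed by 0.65, Mgp and Ccn3 by 0.66, and Postn and Thbs1 by 0.68. The related thrombospondin genes Thbs1 and Thbs2 were farther apart, at 0.97.

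Dcn, a proteoglycan gene counted among the fibroblast markers, went against the rest of that list, with levels of 6.76, 8.62, 10.97 and 10.98 through the gates. Thy1, a fibroblast surface marker, had levels of 8.38, 9.81, 6.57 and 5.30 and was highest in the Oct4+Klf4-negative fraction, as Postn, Thbs1 and Itga8 were.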
